A study of Homo sapiens with 6 samples.

Results

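CYB5R2, TMEM158, LINC00520 and ESM1 were 4 genes whose transcripts lay higher in PC-3 cells after treatment with S-adenosylmethionine (SAM), the cell's methyl donor, than after vehicle. They were found by gene name in the count table, as 4 of 57396 listed genes and 4 of the 15312 genes with enough counts to be tested. The choice was made on this same contrast, as tight rises outside the cytokine and keratin genes, so their difference between the groups is given as a description and without a test.

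PC-3 is an established cell line from a bone metastasis of a human prostate carcinoma that grows without androgen. The treated group consisted of 3 libraries of cells kept for 5 d in 160 µM SAM, and the control group of 3 libraries of cells kept in vehicle for 5 d, with no genetic change in either. The labels name total RNA, a TruSeq RNA kit and a HiSeq2000 instrument. All samples were of a single cell line, and nothing in the labels says whether the libraries of a group came from separate cultures, so p-values measure only the spread between these libraries.

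Total counts ran from 9379258 in control 1 to 28995160 in SAM 1, a 3.09-fold range, so that 3 counts corresponded to between 0.103 CPM in SAM 1 and 0.32 CPM in control 1. CPM, the unit of all levels here, is the count per 1000000 counts of the library total after scaling by the trimmed mean of M values (TMM). Control 1 and SAM 2 stood apart from the other 4 libraries: the transcript CTD-2328D6.1 took 1.18% and 1.56% of their counts against 0.0324% to 0.0636%, and mitochondrial ribosomal RNA took 0.701% and 0.863% against 0.431% to 0.499%. In SAM 3, levels leaned towards genes rich in G and C by 0.124 on the log2 scale per 10 percentage points, against -0.061 to -0.001 in the other libraries. By transcript length the lean was -0.114 per doubling in SAM 3 and -0.05 in SAM 1, against 0.033 in SAM 2 and 0.008 to 0.068 in control libraries, and its part in the results was not tested beyond the setting that removes both trends. The epithelial keratin genes KRT8 and KRT18 lay at 876 and 1062 CPM in control cells, and the prostate secretory genes KLK3 and KLK2 had 0 counts in all libraries.

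The 4 genes belong to different systems. CYB5R2 encodes an NADH-cytochrome b5 reductase, an enzyme family that passes electrons from NADH to cytochrome b5, which hands them on to lipid desaturases, sterol oxidases and other oxygen-using enzymes. TMEM158 encodes a membrane protein first described as a transcript that appears when oncogenic Ras drives fibroblasts into senescence. LINC00520 is a long intergenic non-coding RNA known from breast epithelial cells, in which Src, PI3K and STAT3 signalling raise it. ESM1 encodes endocan, a secreted proteoglycan with a single dermatan sulfate chain, made by endothelial cells at the tips of growing vessels under vascular endothelial growth factor and also by several carcinomas.

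All 4 genes lie on the minus strand, on 4 different chromosomes (coordinates as deposited and read as GRCh38, strand and models from GENCODE release 44). CYB5R2 (ENSG00000166394) spans chr11:7665100-7677222, or 12123 bases, with 14 annotated transcripts. TMEM158 (ENSG00000249992) is the most compact, at chr3:45224466-45226278 with 1 annotated transcript. LINC00520 (ENSG00000258791) lies at chr14:55781135-55796688 with 12 transcripts, and ESM1 (ENSG00000164283) at chr5:54977864-55022671 with 4. The only overlap of exons found with another gene on the same strand was 44 bases shared between ESM1 and ENSG00000240535, a non-coding gene with 0 counts in these libraries.

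Since SAM feeds DNA methylation, which in mammals falls mostly on the CG dinucleotide, the promoters of the protein-coding members are shown with each CG in capitals. No methylation was measured here. RefSeq sequences (GRCh38.p14, minus strand, 250 bases before to 50 bases after each annotated start) were matched for 3 of the 4 genes, with 5 promoters, of which 3 belong to CYB5R2. The median promoter among all 35116 of this length held 14 CG. The first CYB5R2 promoter, at chr11:7673451-7673750, held 35 CG, more than 85.9% of all promoters, the second, at chr11:7672842-7673141, held 7, and the third, at chr11:7674218-7674517, held 23.
CYB5R2 promoter 1: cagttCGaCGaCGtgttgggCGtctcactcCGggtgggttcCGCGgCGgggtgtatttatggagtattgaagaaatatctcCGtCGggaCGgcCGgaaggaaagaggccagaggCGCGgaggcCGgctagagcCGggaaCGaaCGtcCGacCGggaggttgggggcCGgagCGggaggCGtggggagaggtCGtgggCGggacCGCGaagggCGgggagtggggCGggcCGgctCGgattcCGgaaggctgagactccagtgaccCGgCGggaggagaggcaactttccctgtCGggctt
CYB5R2 promoter 2: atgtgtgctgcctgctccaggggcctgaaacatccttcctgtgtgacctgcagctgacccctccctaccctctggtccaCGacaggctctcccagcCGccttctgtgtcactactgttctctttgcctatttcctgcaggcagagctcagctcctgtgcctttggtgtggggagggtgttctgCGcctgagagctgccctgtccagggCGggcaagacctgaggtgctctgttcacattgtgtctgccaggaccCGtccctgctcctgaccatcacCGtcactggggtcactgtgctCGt
CYB5R2 promoter 3: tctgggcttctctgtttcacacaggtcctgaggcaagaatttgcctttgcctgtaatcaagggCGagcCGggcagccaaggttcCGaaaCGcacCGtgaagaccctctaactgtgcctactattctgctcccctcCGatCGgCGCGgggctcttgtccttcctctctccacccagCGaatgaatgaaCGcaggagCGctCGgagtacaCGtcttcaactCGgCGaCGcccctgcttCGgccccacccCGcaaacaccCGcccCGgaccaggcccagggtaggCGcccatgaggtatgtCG

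The TMEM158 promoter, at chr3:45226238-45226537, held 46 CG, more than 97.1% of all promoters, and was 82.7% G and C. The ESM1 promoter, at chr5:54985544-54985843, held 8 CG, more than 39.3% of all promoters, and was 49.3% G and C. The members with a promoter therefore ranged from CG-poor to CG-rich. The starts printed for CYB5R2 and ESM1 lie inside the deposited spans of these genes, which longer annotated transcripts extend.
TMEM158 promoter 1: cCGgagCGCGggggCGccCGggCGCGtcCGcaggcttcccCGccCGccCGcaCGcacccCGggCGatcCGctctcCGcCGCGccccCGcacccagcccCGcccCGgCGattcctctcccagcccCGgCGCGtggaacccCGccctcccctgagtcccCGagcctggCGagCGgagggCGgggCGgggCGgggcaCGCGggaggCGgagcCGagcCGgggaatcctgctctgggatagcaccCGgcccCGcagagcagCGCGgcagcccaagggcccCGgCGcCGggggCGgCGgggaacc
ESM1 promoter 1: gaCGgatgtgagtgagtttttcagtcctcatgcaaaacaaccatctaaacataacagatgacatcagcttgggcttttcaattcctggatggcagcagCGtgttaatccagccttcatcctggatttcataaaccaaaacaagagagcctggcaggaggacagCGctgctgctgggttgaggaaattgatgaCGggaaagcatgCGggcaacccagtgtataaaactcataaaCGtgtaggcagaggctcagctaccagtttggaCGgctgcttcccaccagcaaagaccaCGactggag

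A search of these windows for 6 short motifs gave few letters in common. GGGCGG, the GC box, searched on both strands and found in 45% of all promoters, occurred 8 times in the TMEM158 promoter, in part overlapping, 3 times in CYB5R2 promoter 1, once in each other CYB5R2 promoter and not in ESM1. TATAAA, searched on the given strand and found in 7.33% of all promoters, occurred only in the ESM1 window, with its first base 32 bases before the start. ACGTG, a form of the core of the hypoxia-response element, was searched on both strands and found in 21.4% of all promoters. It occurred in CYB5R2 promoters 1 and 3 and in ESM1. The other form of that core, GCGTG, was not searched, so its presence or absence in these windows is not reported. TGANTCA, TTCNNNGAA and TGACGTCA, the letters of the AP-1, STAT and CREB motifs, were found on either strand in 7.71%, 7.66% and 1.85% of all promoters and in none of these 5 windows. No motif contains another, although neighbouring matches can share bases. These matches describe letters and not bound sites.

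CYB5R2 measured 11.6, 13.1 and 12.2 CPM in control 1, 2 and 3 and 35.2, 40.9 and 40.3 CPM in SAM 1, 2 and 3. All SAM libraries lay above all control libraries, and the lowest SAM library was 2.69-fold above the highest control. Control libraries averaged 12.3 ± 0.751 CPM and SAM libraries 38.8 ± 3.12 CPM (SD, n = 3), which is 3.13-fold, or 1.65 (SE 0.11) on the log2 scale. SAM 1, the deepest library, held the lowest of the treated values.

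TMEM158 measured 17.6, 20.3 and 18.3 CPM in control 1, 2 and 3 and 54.6, 45.4 and 59 CPM in SAM 1, 2 and 3. The groups did not overlap, and the lowest SAM library, SAM 2, was 2.24-fold above the highest control. Group means were 18.7 ± 1.41 CPM without and 53 ± 6.94 CPM with SAM (SD, n = 3), a 2.83-fold difference with a log2 value of 1.5 (SE 0.12). TMEM158 had the highest CPM and the smallest fold of the 4.

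LINC00520 measured 1.39, 1.41 and 1.37 CPM in control 1, 2 and 3, from 13, 31 and 28 counts, and 8.68, 7.02 and 6.4 CPM in SAM 1, 2 and 3, from 252, 83 and 97 counts. Again the groups were apart, with the lowest SAM library 4.55-fold above the highest control. Averages of 1.39 ± 0.0185 CPM in control and 7.37 ± 1.18 CPM in SAM libraries (SD, n = 3) gave a 5.33-fold difference, or 2.41 (SE 0.19) on the log2 scale. The spread among control libraries was smaller than counting alone would leave, since the 95% Poisson interval of control 1 ran from 0.742 to 2.38 CPM, so the closeness of the 3 control values is no measure of precision. Such intervals cover counting error only.

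ESM1 measured 3.22, 3.9 and 3.04 CPM in control 1, 2 and 3 and 15.6, 12.6 and 9.77 CPM in SAM 1, 2 and 3. It had the widest relative spread of the 4, with a coefficient of variation of 22.9% among SAM libraries, yet the lowest of them was 2.5-fold above the highest control. The averages were 3.39 ± 0.458 CPM in control and 12.6 ± 2.9 CPM in SAM libraries (SD, n = 3), 3.73-fold apart, with a log2 fold change of 1.9 (SE 0.2).

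**Figure D1:**
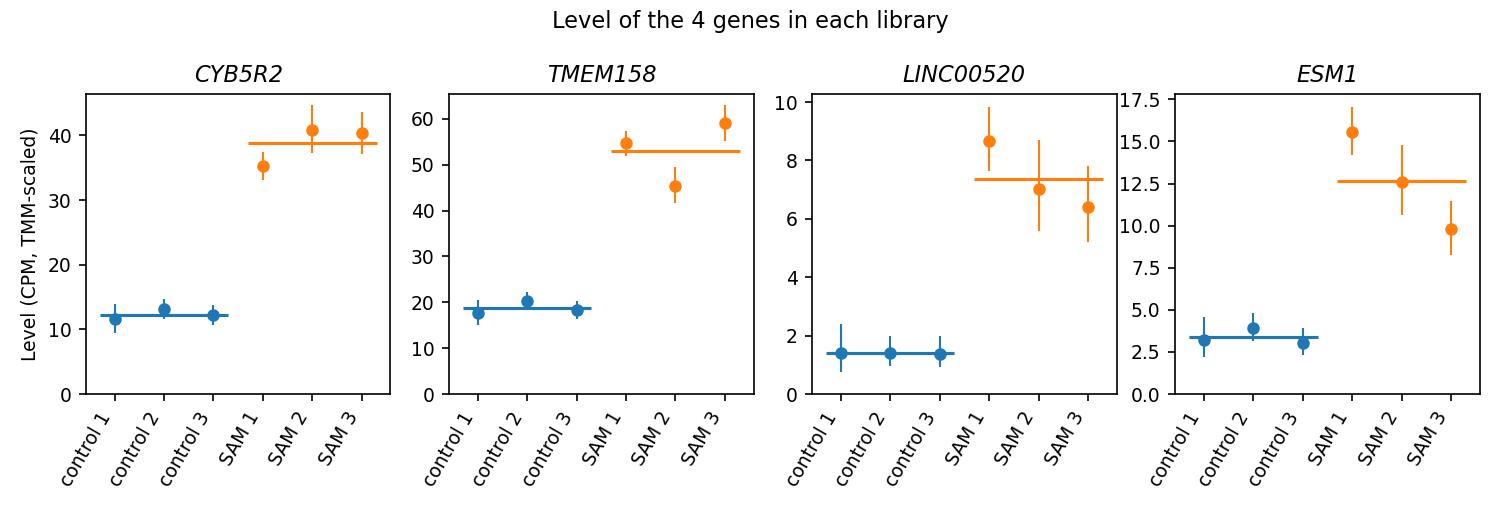
Level of each gene in each library, in TMM-scaled CPM on axes that start at 0, with control libraries in blue and SAM libraries in orange. Points are single libraries, vertical bars are 95% Poisson intervals of the counts and horizontal lines are group means. In all 4 panels the 3 SAM points lie above the 3 control points, for example from 6.4 to 8.68 against 1.37 to 1.41 CPM for LINC00520.

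All 4 genes passed an adjusted p of 0.05 upward in the fit over all tested genes, where 795 genes (5.19%) did so. All SAM libraries lay above all control libraries for 2740 genes (17.9%), the 4 among them. The members were chosen on this contrast, so neither count says anything further about them. The 4 also were among the 126 genes (0.823%) called and at least 2-fold higher, and by fold LINC00520 ranked 9, ESM1 21, CYB5R2 37 and TMEM158 46 among the 795 rises. At the same threshold 803 genes (5.24%) were lower, and the median log2 fold change over all tested genes was -0.01. With library totals as the only scaling the calls were 608 higher and 961 lower.

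**Figure D2:**
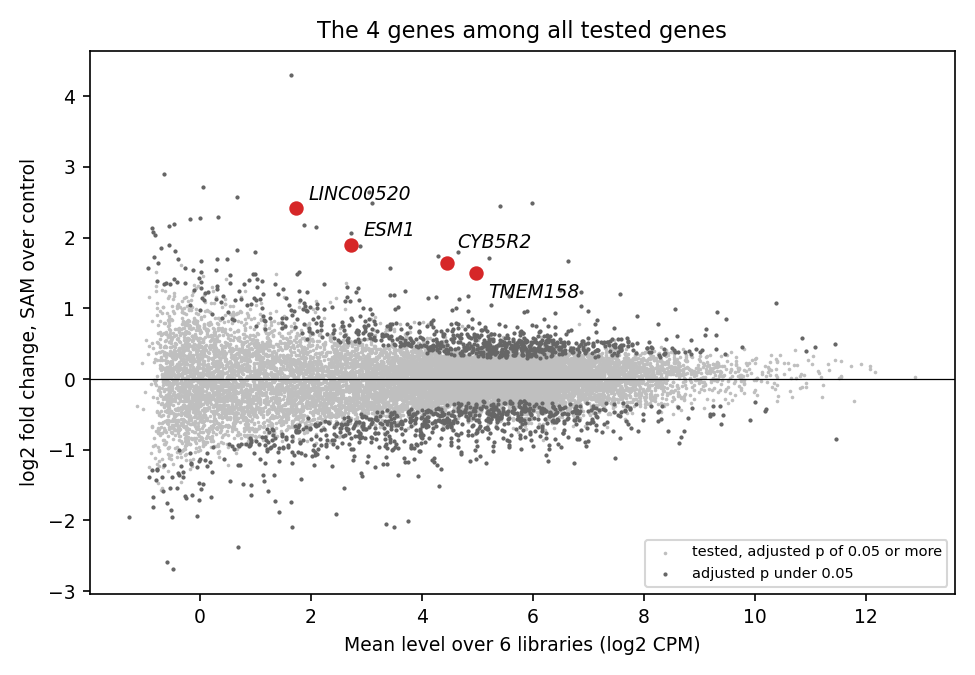
Log2 fold change of SAM over control against mean level over the 6 libraries in log2 CPM, 1 point per tested gene. Light points did not pass an adjusted p of 0.05, dark points did, and the 4 members are in red. LINC00520, at 2.41, and ESM1, at 1.9, lie in the lower range of CPM, whereas CYB5R2 and TMEM158 lie near the middle. CPM is not scaled by transcript length.

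In control cells, CYB5R2 lay above 37.9% of tested genes by CPM and in treated cells above 62.4%. The same percentages were 45.5% and 70% for TMEM158, 22.1% and 38.7% for ESM1, and 12.3% and 31% for LINC00520. These places by CPM take no account of transcript length. Among the 5919 tested genes with 1 to 20 CPM in control cells the median coefficient of variation was 10.5% in control and 15.9% in SAM libraries, against 6.11% and 8.04% for CYB5R2, 7.53% and 13.1% for TMEM158, 1.33% and 16% for LINC00520 and 13.5% and 22.9% for ESM1. Tightness was part of the choice, so these values are descriptions too.

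Levels can be set against each other only per transcript length. Per kilobase of the Ensembl canonical transcript, a choice made after the data were seen, control levels were 10.3 ± 0.773 CPM per kb for TMEM158 and 9.84 ± 0.601 for CYB5R2 (SD, n = 3), which lay within each other's spread. LINC00520 followed at 3.22 ± 0.0429 and ESM1 at 1.62 ± 0.219 CPM per kb. With SAM, CYB5R2 lay at 31.1 ± 2.5 and TMEM158 at 29.1 ± 3.81 CPM per kb, again within their spread, then LINC00520 at 17.1 ± 2.73 and ESM1 at 6.03 ± 1.38. The order depended on the transcript taken. With the longest GENCODE transcript in place of the canonical one, CYB5R2 (7463 in place of 1249 bases) lay at 1.65 and LINC00520 (2084 in place of 432 bases) at 0.667 CPM per kb in control cells.

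Within the groups, the correlation between members varied by pair. Over all 6 libraries, Pearson's r of log2 CPM between pairs of members was 0.957 to 0.989, a range that the step between the groups produces by the choice of the genes. Of the deviations from the group means, LINC00520 and ESM1 had r = 0.874 over the 6 libraries, both being highest in SAM 1 and lowest in SAM 3. CYB5R2 and LINC00520 had r = -0.73, with CYB5R2 lowest in SAM 1, and the 4 other pairs lay between -0.33 and 0.07. These are descriptions over 6 libraries with 2 group means removed, and the libraries also differed in depth and in their lean towards G and C. Counting error adds to the deviations, most for LINC00520 with 13 counts in control 1, and its part in these values was not tested.

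CYB5R2 was compared with the rest of the cytochrome b5 system. Of the 9 other genes of cytochrome b5 and its reductases, 0 rose and 1 fell, with a median log2 fold change of 0.11 against -0.01 over all genes. Over all tested genes 5.19% rose and 5.24% fell, and the counts of each list below are to be read beside these shares. By edgeR's quasi-likelihood test 2 of the 9 had an unadjusted p under 0.05 upward, DESeq2 called 1 higher and voom 0. CYB5R3, the reductase of the endoplasmic reticulum and of red cells, went from 128 ± 4.54 to 153 ± 11.5 CPM (SD, n = 3), which missed the threshold (log2 fold change 0.26, edgeR adjusted p = 0.102). CYB5R1 went from 35.2 to 38 CPM (edgeR adjusted p = 0.425) and CYB5R4, a fusion of a cytochrome b5 and a reductase domain, from 19.5 to 17 CPM (edgeR adjusted p = 0.252). The electron carriers themselves, microsomal CYB5A and mitochondrial outer-membrane CYB5B, had log2 fold changes of 0.24 and 0.17 with edgeR adjusted p of 0.177 and 0.299. The gene that fell was CYB5D2, a haem-binding protein with a cytochrome b5-like domain, from 23.6 ± 1.87 to 17.7 ± 2.05 CPM (SD, n = 3; log2 fold change -0.43, SE 0.12, edgeR adjusted p = 0.0494). That call was lost in 9 of 18 alternative settings. Its edgeR adjusted p was 0.103, 0.161 and 0.215 without control 1, 2 or 3 and 0.149 without SAM 1. Leaving out control 1, 2 or 3 or SAM 1 also gave fewer calls over all tested genes. Rises were 114, 108, 61 and 107 in place of 795, and falls 141, 114, 78 and 108 in place of 803. Adjusted p values given below for these settings are to be read beside those counts.

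Among the reductase transcripts per canonical kilobase, CYB5R2 made up 12.1%, 13.3% and 12.2% of the sum in control 1, 2 and 3 and 27.6%, 29.7% and 27.7% in SAM 1, 2 and 3. On this scale it lay above CYB5R1 in treated cells, whose share went from 27.7% ± 0.941 to 21.3% ± 0.891, and below CYB5R3, whose share went from 56% ± 0.865 to 47.9% ± 0.395 (SD, n = 3). CYB5R4 and CYB5RL held 2.7% and 1.12% in control and 1.7% and 0.73% in treated cells. With the deposited transcript lengths the CYB5R2 share went from 9.72% to 22.7%, and with the longest GENCODE transcripts from 3.38% to 8.76%. With the last of these lengths CYB5R1, at 21.1% in treated cells, lay above CYB5R2, so both the size of the share and its rank depend on the length taken. The rise of the share follows from the rise for which CYB5R2 was chosen and is a description.

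**Figure D3:**
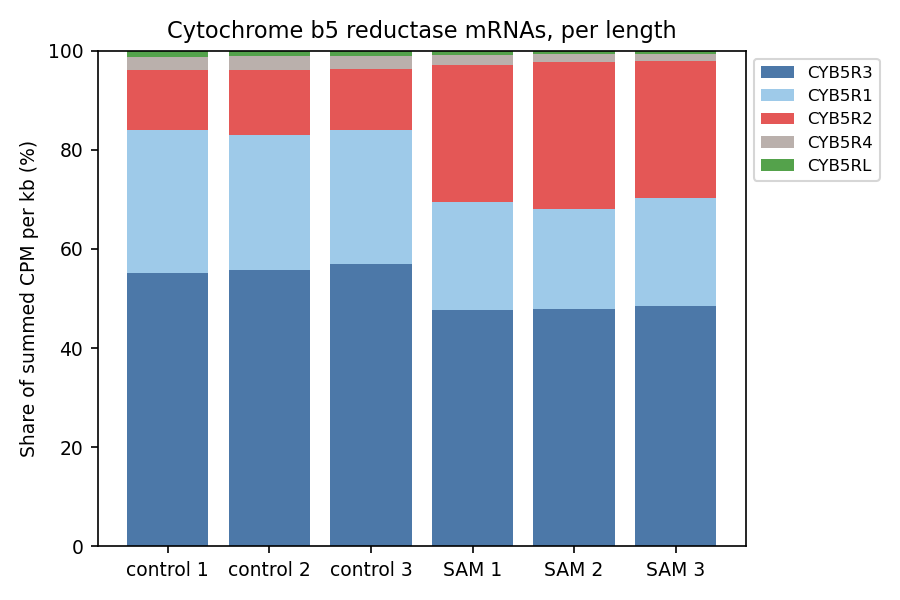
Share of each NADH-cytochrome b5 reductase gene, in percent of the summed CPM per canonical kilobase, with 1 bar per library. The CYB5R2 segment, in red, measures 12.1% to 13.3% in control libraries and 27.6% to 29.7% in SAM libraries.

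Of 10 enzymes that take electrons from cytochrome b5 (desaturases, sterol oxidases and amidoxime reductases), 1 rose and 0 fell, with 0 at an unadjusted p under 0.05 downward by edgeR and 0 called lower by DESeq2 or voom. Their median log2 fold change was -0.01. The gene that rose was MTARC1 (MARC1 in the table), the mitochondrial amidoxime reducing component, from 30.4 ± 1.75 to 45 ± 0.543 CPM (SD, n = 3; log2 fold change 0.57, SE 0.09, edgeR adjusted p = 0.00682). Without control 3 its adjusted p was 0.0737.

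For TMEM158, the genes of the Ras cascade and of its output were examined. None of the 10 genes from Ras to ERK passed the threshold in either direction, 0 had an unadjusted p under 0.05 by edgeR, and DESeq2 and voom called 0. HRAS went from 57.3 to 67.1 CPM and NRAS from 54 to 49.7 CPM, with edgeR adjusted p of 0.244 and 0.521. Signalling itself runs through GTP loading and phosphorylation, which transcript levels do not measure.

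Of 19 tested transcriptional outputs of ERK, 1 rose and 4 fell (5.26% and 21.1%, against 5.19% and 5.24% of all tested genes). Their median log2 fold change was -0.28, against -0.01 over all tested genes. FOSL1, a subunit of AP-1, rose from 236 ± 12.1 to 403 ± 34.6 CPM (SD, n = 3; log2 fold change 0.78, SE 0.1, edgeR adjusted p = 0.00293). SPRY1, a feedback inhibitor of receptor tyrosine kinase signalling, fell from 36.9 to 22.2 CPM (log2 fold change -0.74, edgeR adjusted p = 0.00455). The ETS factor genes ETV1 and ETV5 fell by 0.75 and 0.45 on the log2 scale, and so did the ephrin receptor gene EPHA2, by 0.4, with edgeR adjusted p of 0.00761, 0.0214 and 0.0443. The phosphatase gene DUSP6, a standard readout of ERK, measured 190 CPM in control and 155 CPM in treated cells and did not pass (edgeR adjusted p = 0.0636). Without SAM 1 the adjusted p was 0.0557 for ETV1, 0.0832 for ETV5 and 0.119 for EPHA2, and without control 1, 2 or 3 it was 0.107, 0.0654 and 0.118 for ETV5 and 0.161, 0.123 and 0.179 for EPHA2. EPHA2 and DUSP6 were named after their values were seen. The number of ERK outputs that fell was 1 without SAM 1, 2 without control 1, 2 or 3, 2 with the replicate block and 8 without SAM 2.

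Of 18 tested senescence genes, 4 rose and 2 fell (22.2% and 11.1%, against 5.19% and 5.24% of all tested genes). Their median log2 fold change was 0.09. Among those that rose were genes of secreted proteins. IGFBP3, which binds insulin-like growth factors, rose from 126 to 289 CPM (log2 fold change 1.2, edgeR adjusted p = 0.0016). MMP3, a stromelysin, rose from 0.334 to 1.83 CPM on 126 counts in all libraries together (log2 fold change 2.27, SE 0.34, edgeR adjusted p = 0.007) and CXCL8, a neutrophil chemokine, from 59.5 to 143 CPM (edgeR adjusted p = 0.0129). The 2 that fell were CDKN2B, an inhibitor of cyclin D-dependent kinases, from 93.1 to 53.3 CPM (log2 fold change -0.81, edgeR adjusted p = 0.00682), and GDF15, a stress hormone, from 111 to 52.9 CPM (edgeR adjusted p = 0.0139). CDKN1A, the p21 gene, measured 80.7 and 76.6 CPM (edgeR adjusted p = 0.609). The adjusted p was 0.0539 without control 3 and 0.0611 without SAM 1 for MMP3, 0.0664 without control 1 and 0.0842 without control 3 for CXCL8, and 0.0533, 0.0603 and 0.0746 without control 1, 2 or 3 for GDF15. CXCL8, GDF15 and CDKN1A were named after their values were seen.

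LINC00520 was set beside the signalling genes known to raise it in breast cells. STAT3, the transcription factor of that pathway, had 0 counts in all 6 libraries, which allows at most 0.103 CPM in SAM 1 and 0.32 CPM in control 1, and PC-3 cells are known to carry a deletion of this gene. LINC00520 was therefore measured, in both groups, in cells without a detectable STAT3 transcript. SRC went from 103 to 92.1 CPM (edgeR adjusted p = 0.243).

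Of the 21 tested genes of Src, PI3K and STAT3 signalling, 2 rose and 2 fell, with a median log2 fold change of -0.17. IL6R, the interleukin-6 receptor, rose from 10.7 to 16.7 CPM and MYC from 282 to 351 CPM (log2 fold changes 0.66 and 0.31, edgeR adjusted p = 0.0328 and 0.0447). The kinase gene PIM1 and the AP-1 subunit gene JUNB fell by 0.54 and 0.34 on the log2 scale (edgeR adjusted p = 0.0122 and 0.0369). All 4 of these calls were lost without control 1, 2 or 3 and without SAM 1, with adjusted p of 0.0913, 0.13, 0.136 and 0.136 for IL6R, 0.184, 0.164, 0.189 and 0.104 for MYC, 0.0733, 0.061, 0.0808 and 0.0525 for PIM1 and 0.109, 0.15, 0.189 and 0.104 for JUNB. SOCS3, a feedback inhibitor that STAT3 induces elsewhere, measured 21.4 and 22.9 CPM (edgeR adjusted p = 0.527) and was named after its value was seen.

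Among the 137 tested genes with a LINC name, LINC00520 had the highest fold. By CPM, which takes no account of transcript length, it ranked 83 in control and 30 in treated cells. Of the other 136, 3 rose and 10 fell, where 5.19% of all tested genes rose and 5.24% fell. Their log2 fold changes ran from -1.95 to 1.48 with a median of -0.12, against -0.01 over all tested genes. Those with the highest CPM in control cells were LINC00657 (NORAD), LINC00857 and LINC01468. They lay at 769, 60.3 and 56.1 CPM in control and 709, 66.6 and 47.6 CPM in treated cells. Nearest to LINC00520 in fold among the called genes were LINC00052, from 0.818 to 2.4 CPM (log2 fold change 1.48, edgeR adjusted p = 0.0235), and LINC00973, from 27.8 to 45.4 CPM (log2 fold change 0.71, edgeR adjusted p = 0.0128). Without control 1, 2 or 3 or SAM 1 the adjusted p was 0.0848, 0.0737, 0.106 and 0.124 for LINC00052 and 0.0755, 0.0552, 0.0842 and 0.0506 for LINC00973. The place of LINC00520 in this order was part of how it was chosen and is a description.

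For ESM1, the genes that build its glycan chain were examined first. Of 23 tested genes of chondroitin and dermatan sulfate synthesis, 1 rose and 0 fell, with a median log2 fold change of -0.01, 1 gene at an unadjusted p under 0.05 downward by edgeR, and 0 called lower by DESeq2 or voom. The gene that rose was B3GAT3, which adds the last sugar of the linker between protein and chain, from 32.5 to 47.6 CPM (log2 fold change 0.54, edgeR adjusted p = 0.0399). Its adjusted p was 0.161, 0.0772 and 0.141 without control 1, 2 or 3 and 0.121 without SAM 1. DSE, the epimerase that turns chondroitin into dermatan, measured 55.2 and 51.9 CPM (edgeR adjusted p = 0.634), and CHST14, the dermatan 4-O-sulfotransferase, 33 and 32 CPM (edgeR adjusted p = 0.799). Both enzymes were thus transcribed in control and treated cells, with log2 fold changes of -0.09 and -0.05.

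Of 15 tested angiogenic factors and receptors, 0 rose and 2 fell, with a median log2 fold change of -0.23, 1 gene at an unadjusted p under 0.05 upward by edgeR, and 0 called higher by DESeq2 or voom. VEGFA, the growth factor known to raise ESM1 in endothelium, measured 181 and 150 CPM (log2 fold change -0.27, edgeR adjusted p = 0.0925). NRP1, a co-receptor for VEGFA, fell from 847 to 545 CPM (log2 fold change -0.64, edgeR adjusted p = 0.0114), and ITGB2, the beta chain of the integrin LFA-1 to which endocan binds, from 67.4 to 45.5 CPM (log2 fold change -0.57, edgeR adjusted p = 0.0201). For NRP1 the adjusted p was 0.0717 without control 1, 0.0743 without control 3 and 0.0688 without SAM 1, and for ITGB2 it was 0.0787, 0.0775 and 0.103 without control 1, 2 or 3 and 0.0595 without SAM 1. KDR, the main endothelial receptor for VEGFA, had 49 counts in all libraries together and was not tested. ITGAL, the alpha chain of LFA-1, had 9 counts in all libraries together and was also not tested. ITGAL was named after its value was seen.

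Since ESM1 is best known from endothelium, endothelial markers were read in the same libraries. Of 13 listed markers 6 were tested, and the summed level of the list was 53.4 to 59 CPM in control and 56.9 to 68 CPM in SAM libraries. ERG and PLVAP had 0 counts, EMCN had 1 count, CLDN5 7, CDH5 13 and VWF 44 counts over all libraries. ROBO4 and EGFL7 made up most of the sum, at 30.5 and 16.4 CPM in control cells. TIE1, an endothelial receptor kinase, rose from 3.25 to 5.72 CPM (log2 fold change 0.88, edgeR adjusted p = 0.0226), with an adjusted p of 0.105 and 0.134 without control 2 or 3 and 0.0947 without SAM 1. ESAM and MMRN2 lay at 2.46 and 2.73 CPM in control cells and TEK at 0.623 CPM. The list was thus mixed, with some markers at or near 0 and others transcribed in both groups, and its part in the ESM1 difference was not tested. In bulk libraries, a change in the share of cells that express ESM1 and a change in its RNA per cell cannot be told apart, and the same holds for the other 3 genes.

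Over the 8 lists together, 9 of 125 tested genes rose (7.2%) and 11 fell (8.8%), against 5.19% and 5.24% of all tested genes, with a median log2 fold change of -0.04. Without both control 1 and SAM 2 there were 4 rises and 2 falls among senescence genes, 1 and 2 among ERK outputs, 0 and 2 among angiogenic genes and also among those of Src, PI3K and STAT3 signalling, 1 and 0 among enzymes supplied by cytochrome b5, and none in the other 3 lists.

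On their chromosomes, no tested neighbour of the 4 genes passed the threshold upward. Of 32 tested genes within 500 kb of a member, 0 rose and 4 fell (12.5% called, against 10.4% of all tested genes in either direction), with 4 genes at an unadjusted p under 0.05 upward by edgeR and 0 called higher by DESeq2 or voom. Of those that fell, 3 lay near CYB5R2. OVCH2, an ovochymase gene 12.2 kb to its right by coordinate, had 14, 22 and 24 counts in control 1, 2 and 3 and 11, 4 and 2 counts in SAM 1, 2 and 3. Its level fell from 1.23 ± 0.255 to 0.283 ± 0.132 CPM (SD, n = 3; log2 fold change -1.95, SE 0.37, edgeR adjusted p = 0.0138). RP11-494M8.4, a non-coding gene 77.2 kb away, fell from 1.71 to 0.531 CPM, and SYT9, a synaptotagmin gene 196 kb to the left, from 20 to 14.9 CPM (edgeR adjusted p = 0.0309 and 0.039). PPFIBP2, the nearest tested gene on the left at 7.97 kb, measured 2.96 and 3.81 CPM (edgeR adjusted p = 0.275).

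Near the other members, PELI2, a ubiquitin ligase gene 321 kb from LINC00520, fell from 3.8 to 2.13 CPM (log2 fold change -0.84, edgeR adjusted p = 0.0299), and KTN1, 79.6 kb away, measured 704 and 631 CPM (edgeR adjusted p = 0.347). None of the 11 tested genes around TMEM158 and none of the 7 around ESM1 passed in the edgeR fit. The nearest tested genes on either side of TMEM158 were RPS24P8 at 64.3 kb and LARS2 at 162 kb, with edgeR adjusted p of 0.226 and 0.0777. On either side of ESM1 they were GPX8 at 137 kb and SNX18 at 431 kb, with edgeR adjusted p of 0.0519 and 0.15. The 4 calls near members were not firm: without control 1, 2 or 3 or SAM 1 the adjusted p was 0.064, 0.0534, 0.0822 and 0.0638 for OVCH2, 0.107, 0.0534, 0.158 and 0.0688 for RP11-494M8.4, 0.141, 0.127, 0.166 and 0.128 for SYT9 and 0.0825, 0.0987, 0.176 and 0.0859 for PELI2. Without SAM 3 it was 0.0512 for RP11-494M8.4. Calls over all tested genes were also fewer without control 1, 2 or 3 or SAM 1.

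**Figure D4:**
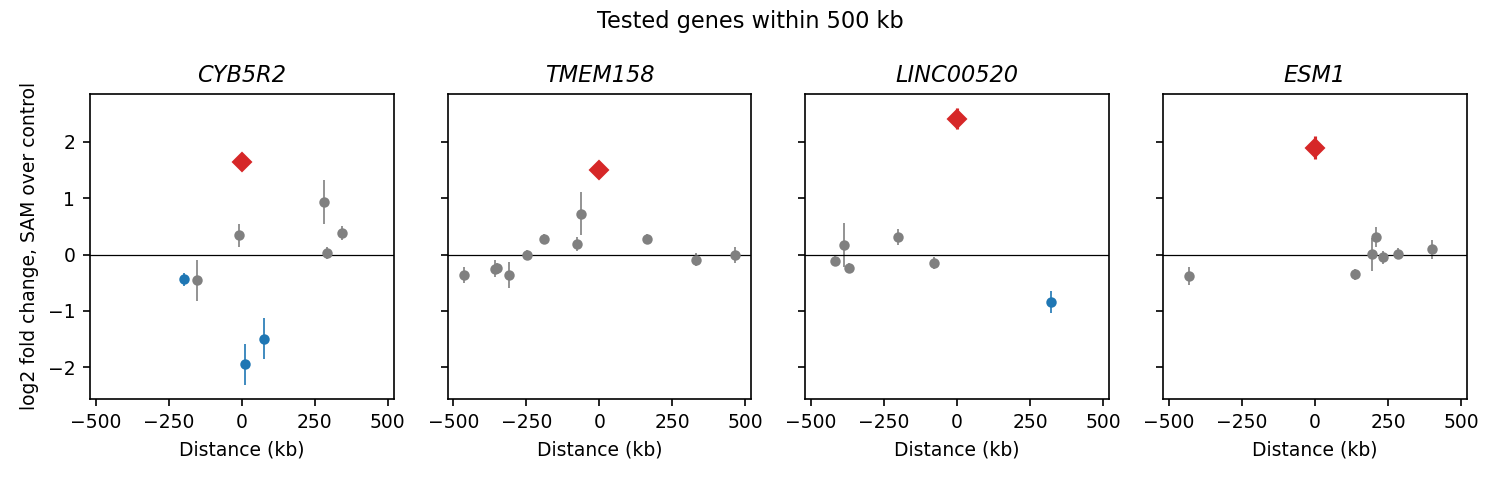
Log2 fold change of tested genes within 500 kb of each member against their distance in kb, 1 panel per member. The member is the red diamond at 0, blue points are genes that fell at an adjusted p under 0.05, grey points did not pass, and bars are SE. OVCH2, at -1.95, lies next to CYB5R2, at 1.65.

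Among 11640 genes of sufficient level, those most like each member over the 6 libraries were read by Pearson's r of log2 CPM. Genes that step up between the groups with little spread resemble each other by this measure: 254, 457, 315 and 238 genes had r over 0.95 with CYB5R2, TMEM158, LINC00520 and ESM1. CYB5R2 was most like ANKS6 (r = 0.998, from 63.4 to 78.1 CPM), the gelatinase gene MMP9 (r = 0.997, from 8.04 to 16.1 CPM) and the endocytic recycling gene EHD1 (r = 0.997, from 176 to 253 CPM). TMEM158 was most like PRR5, a subunit of mTORC2 (r = 0.999, from 6.73 to 11.6 CPM), SECTM1 (r = 0.998, from 31.1 to 45.8 CPM) and HSPA1B (r = 0.997, from 16.4 to 32.5 CPM), whose reads are hard to tell from its near-identical copy HSPA1A.

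LINC00520 was most like the growth factor gene FGF1 (r = 0.9995, from 3.31 to 5.3 CPM), the receptor kinase gene TYRO3 (r = 0.997, from 64.5 to 89.1 CPM) and FAM83A (r = 0.997, from 42.9 to 83.3 CPM). ESM1 was most like the interleukin-1 decoy receptor gene IL1R2 (r = 0.997, from 3.21 to 13.3 CPM), the cytokine gene IL1B (r = 0.996, from 315 to 481 CPM) and IGFBP3 (r = 0.996, from 126 to 289 CPM). Of these 12 genes, the fold of IL1R2, 2.06 on the log2 scale, was the nearest to that of its member, whereas ANKS6 changed by 0.3 on the log2 scale beside 1.65 for CYB5R2. The measure thus compares the shape over libraries and not the size.

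The fold changes were also computed under 18 alternative settings, as a description of the same values on which the 4 genes were chosen. Leaving out single libraries moved CYB5R2 between 1.61 and 1.71, TMEM158 between 1.42 and 1.6, LINC00520 between 2.26 and 2.51 and ESM1 between 1.7 and 2.06 on the log2 scale. Without both libraries that stood apart, control 1 and SAM 2, the values were 1.58, 1.57, 2.46 and 1.89. ESM1 and LINC00520 were lowest without SAM 1, in which both had their highest level, and highest without SAM 3.

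**Figure D5:**
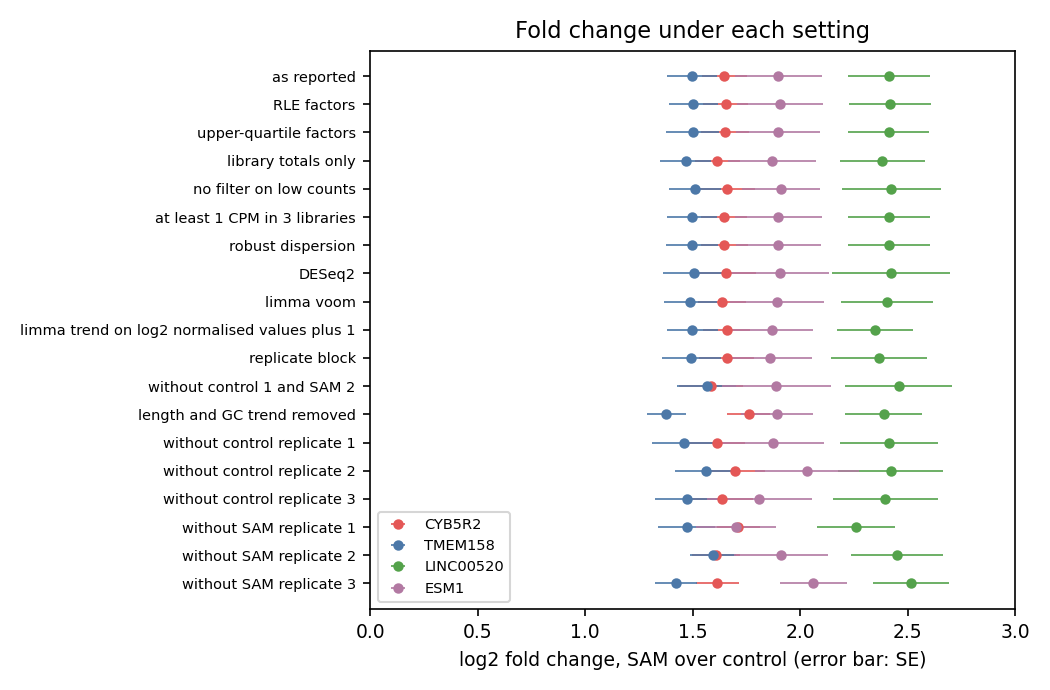
Log2 fold change of SAM over control for each member as reported and under 18 alternative settings, with SE as bars. LINC00520, at 2.26 to 2.51 over the settings that leave out a library, stays apart from the other 3, whereas CYB5R2 and TMEM158 meet at 1.58 and 1.57 without control 1 and SAM 2 and CYB5R2 and ESM1 meet at 1.71 and 1.7 without SAM 1.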

How the data were processed

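Per the labels, total RNA of 6 PC-3 samples was sequenced from TruSeq libraries made of 500 ng RNA. The authors deposited raw read counts per Ensembl gene and the same counts divided by a size factor per library (a normalised signal; factors of 0.562 to 1.75), with gene names and GRCh38 coordinates. STAR 2.4, HTSeq 0.6.1, SAMtools 0.1.19, CASAVA 1.8.2, FastQC 0.10.0 and DESeq2 1.8 stand in the submitters' processing notes, with mm10 and hg19 as builds without roles. No strand setting of the counting was found, so reads of antisense partners cannot be told apart. Dose, kit and instrument follow the labels, from which the paper's methods differ.

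Counts were tested with edgeR 4.0.16 (quasi-likelihood, filterByExpr, TMM, two-sided, all 6 libraries) over 15312 genes in R 4.3.3, calling Benjamini-Hochberg adjusted p under 0.05. The procedure was tested on simulated data, where it called 42.2% of 1.5-fold, 79.7% of 2-fold and 98.3% of 4-fold changes. Of genes simulated without a change it called 0.0529%. A gene that did not pass may therefore still have changed, above all by less than 2-fold. Alternatives were other scaling factors and filters, robust dispersion, DESeq2 1.42.0, limma 3.58.1 (voom, which the paper's methods name, and a trend on log2 normalised values with a pseudocount of 1), a replicate block, libraries left out and a length and GC trend removed. All pairs of libraries within a group differed beyond sampling noise.

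The members and the gene lists were chosen with earlier results of these data known. Named were the members, core partners whatever their result, up to 4 called genes of smallest p per list, the nearest tested gene on either side and called genes within 500 kb, 3 genes most like each member (mean log2 CPM of at least 2), and of the LINC genes the 3 most abundant and the 2 called ones nearest in fold. Promoters came from RefSeq tables. Some genes that these rules name are not reported here.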

Additional observations from a re-analysis of the deposited data

How the results depend on the processing

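No call of a named gene changed direction in any of the alternatives run. With the linear trend on length and GC content removed, CYB5R2 was 1.76 in place of 1.65, TMEM158 1.38 in place of 1.5, LINC00520 2.39 in place of 2.41 and ESM1 1.89 in place of 1.9. Leaving out 1 library at a time gave 1.61 to 1.71 for CYB5R2, 1.42 to 1.6 for TMEM158, 2.26 to 2.51 for LINC00520 and 1.7 to 2.06 for ESM1. The counts over genes moved more, and the cause was not tested. Of 795 genes higher and 803 lower, leaving out a library gave 61 to 1661 and 78 to 1572, with the low end without control 3 and the high end without SAM 2. Without both control 1 and SAM 2 the counts were 446 and 508, with no filter 1402 and 1341, after removal of the length and GC trend 1614 and 1272, and at an adjusted p under 0.01 126 and 127. Of the list genes, 9 higher and 11 lower became 16 higher with that trend removed, 5 and 3 at an adjusted p under 0.01, and 3 to 13 and 3 to 24 with a library left out. The 4 neighbours called became 7 with no filter, 2 with DESeq2, 1 without control 1 and SAM 2, 8 with the trend removed, 0 at an adjusted p under 0.01, 2 within 100 kb, 6 within 1000 kb and 0 to 7 with a library left out.

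Control and SAM samples carry the same replicate numbers. Deviations from the group means correlated at -0.17, -0.40 and 0.13 between same-numbered samples. Between samples of different number they correlated at -0.325 to 0.45, highest for control 1 with SAM 2, the 2 libraries that stood apart. With 3 libraries per group these values cannot tell whether any samples were paired or handled together. With the replicate block 440 genes were higher, 7 list genes were lower and 2 neighbours were called, and the members were at 1.66, 1.49, 2.37 and 1.86. Depth limits LINC00520 most, with 13 counts in control 1.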
